A study of Sus scrofa with 6 samples.

Results

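The AMP-activated protein kinase (AMPK) subunit genes were followed in skeletal muscle of UCP1 KI pigs and WT pigs. The 7 genes, PRKAA1, PRKAA2, PRKAB1, PRKAB2, PRKAG1, PRKAG2 and PRKAG3, were taken by their pig symbols from a table of 30476 Ensembl genes, and all 7 were found and were among the 13402 genes expressed highly enough to be tested. The samples were longissimus dorsi muscles, a back muscle, from 3 UCP1 KI pigs and 3 WT pigs, each aged 6 months, with 1 mRNA library per pig. The UCP1 KI pigs carry a knock-in of uncoupling protein UCP1 that acts in adipocytes, so the muscle fibres themselves are not the cells the insertion was designed for. UCP1 had no pig identifier in the gene name table and was not analysed here, so the genotypes were not checked against its counts. The sex and the relatedness of the pigs are not given in the sources used here.

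AMPK is a kinase complex that senses low cellular energy. A catalytic alpha subunit phosphorylates the substrates, a beta subunit holds the complex together and binds glycogen, and a gamma subunit binds AMP, ADP and ATP and so reports the energy state. Each class has several genes, and muscle builds its complexes mainly with the products of PRKAA2 and PRKAB2, together with PRKAG1 or PRKAG3. The gamma subunit encoded by PRKAG3 is found mostly in fast glycolytic fibres, and variation in this gene is well known in pigs for its effect on muscle glycogen and pork quality. Adipose hormones such as adiponectin can activate AMPK in muscle. Activation itself occurs by phosphorylation and nucleotide binding, which transcript counts do not measure.

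On the assembly Sscrofa11.1, the build in the submitters' processing notes, RefSeq places PRKAG3 on chromosome 15 from 120859486 to 120866308, with 1 annotated transcript. PRKAG2 spans chromosome 18 from 5475077 to 5744761 with 13 transcripts, and PRKAG1 lies on chromosome 5 from 15033051 to 15049676 with 4. The alpha genes are on chromosome 16 from 25745902 to 25783524 (PRKAA1) and chromosome 6 from 155683392 to 155754283 (PRKAA2). The beta genes are on chromosome 14 from 33201359 to 33217641 (PRKAB1) and chromosome 4 from 100378047 to 100394346 (PRKAB2). The counts are per gene, so transcript isoforms of 1 gene were not separated. The span of PRKAB2 overlaps that of CHD1L, and the spans of PRKAA2 and PRKAG2 overlap other loci. The strand setting of the counting is not given in the sources used here, and reads from such shared stretches cannot be told apart.

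Counts on genes totalled 30220951 to 35066624 per pig and were scaled by edgeR's TMM method to counts per 1000000 counts (CPM). The 20 most abundant genes held 39.0% to 56.5% of the counts of a pig, with the highest share in WT replicate 2. Muscle markers were abundant in all 6 pigs, with ACTA1 at 30291 to 55937 CPM and CKM at 5744 to 11986 CPM. Myosin heavy chain genes had no identifier under their symbols, so fibre type was read from 9 other fast-fibre genes and 7 slow-fibre genes, each summarised as the mean of log2(CPM + 1). The fast minus slow difference of these means was -0.55 in UCP1 KI replicate 2, 0.29 in WT replicate 1, 1.76 and 2.38 in UCP1 KI replicates 1 and 3, and 3.39 and 3.63 in WT replicates 3 and 2. The pigs therefore differed strongly in fibre gene balance within both genotypes, and UCP1 KI replicate 2 stood apart through its low fast-fibre genes, with PVALB at 0.336 CPM against 59.5 to 272 CPM in the other 5 pigs. Of 6 fibroblast markers, 4 were called lower in UCP1 KI pigs, as were 4.34% of all genes tested. These were COL1A1, COL1A2, COL3A1 and LUM, with adjusted p values of 0.280 to 0.605 from edgeR. DCN (log2 change -0.39) and PDGFRA (-0.08) were not called. The 6 markers summed to 235 to 434 CPM in UCP1 KI pigs and 742 to 1187 CPM in WT pigs. The 4 smooth muscle markers all had lower estimates in UCP1 KI pigs, with a median log2 change of -0.97 and 0 called. Single markers of other cells were called higher, TEK of 5 endothelial markers (log2 change 1.20) and CD3E of 6 leukocyte markers (1.84, highest in UCP1 KI replicate 2), and all 6 leukocyte estimates were positive. Adipocyte markers had 0 of 7 tested genes called, with a median log2 change of -0.80 and a positive estimate for 1 of the 7. They summed to 155 to 286 CPM in UCP1 KI pigs and 132 to 400.2 CPM in WT pigs. The 2 tested red blood cell markers also had 0 called. They summed, nearly all from HBB, to 11.4 to 75.7 CPM in UCP1 KI pigs and 104 to 179 CPM in WT pigs. In whole muscle, fewer cells of a type and less RNA per cell cannot be told apart.

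None of the AMPK subunit genes was called between UCP1 KI pigs and WT pigs. Genes were called by 2 limits together, a quasi-likelihood p below 0.05 in edgeR before adjustment and a log2 fold change beyond 0.5 in either direction, which 8.19% of all genes tested passed. Of the 7 subunits, 0 passed both limits and 0 had an unadjusted p under 0.05, with edgeR and also with DESeq2. The log2 fold changes of UCP1 KI against WT ran from -0.43 for PRKAB2 to 0.64 for PRKAB1, with a median of 0.08 where the median of all genes tested was -0.02. Their adjusted p values from edgeR (Benjamini-Hochberg over all genes tested) lay between 0.667 for PRKAB1 and 0.972 for PRKAG3. The 95% intervals of these fold changes were wide, and that of PRKAG3 reached from -1.01 to 1.18.

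**Figure D1:**
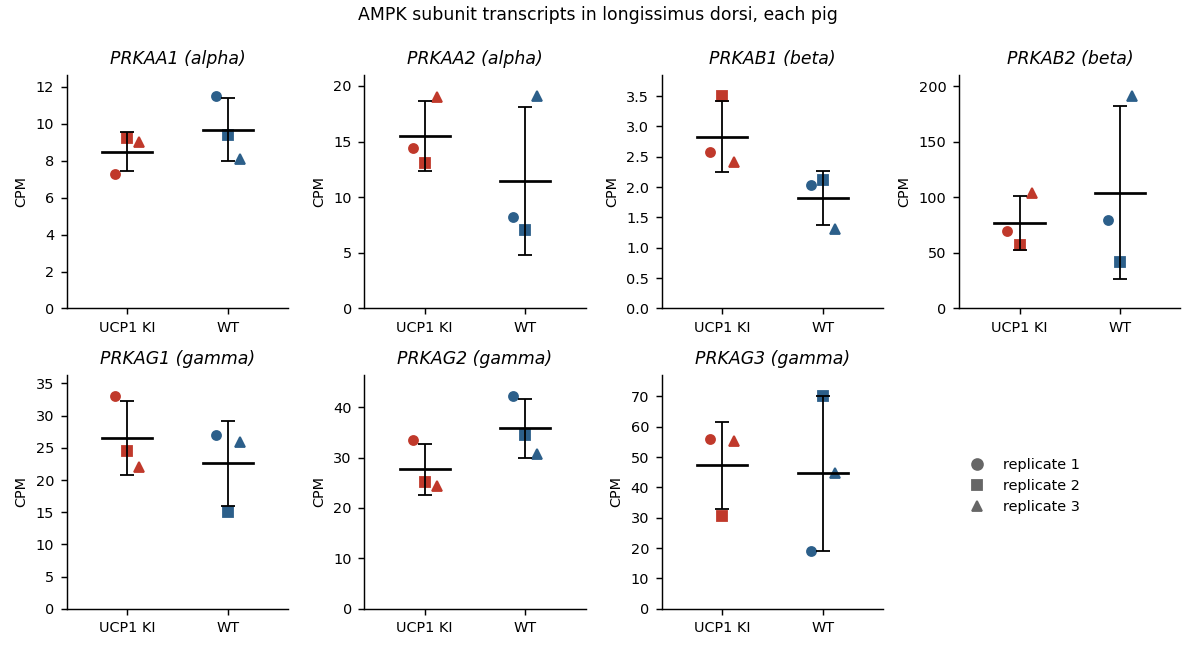
CPM of each AMPK subunit gene in every pig, with 3 UCP1 KI pigs (red) and 3 WT pigs (blue). Marker shapes give the replicate number, bars the group mean and whiskers the SD. PRKAB1 was the subunit whose groups did not overlap, and WT replicate 3 stood far above the other pigs for PRKAB2, at 191 CPM.

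Among the catalytic subunits, PRKAA2 was measured at 14.4, 13.03 and 19.0 CPM in UCP1 KI replicates 1 to 3 and at 8.21, 7.05 and 19.1 CPM in WT replicates 1 to 3. The UCP1 KI pigs were all above WT replicates 1 and 2, but WT replicate 3 had the highest value of the 6, so the groups overlapped. The estimated log2 change was 0.44 with a standard error of 0.41 (edgeR, adjusted p = 0.788). Without WT replicate 3 it was 1.03 and passed both limits, with an unadjusted p of 0.0112 and an adjusted p of 0.413 from edgeR, the only one of the 6 fits with a pig left out in which any subunit was called. PRKAA1 was at 7.27, 9.22 and 9.00 CPM in UCP1 KI pigs and at 11.5, 9.42 and 8.11 CPM in WT pigs. Its groups overlapped as well, and its estimated log2 change of -0.19 (standard error 0.25, adjusted p = 0.858 from edgeR) was 0.06 when libraries were scaled by their size only, a scaling that moved the median of all genes tested by 0.25 and PRKAA1 by the same 0.25.

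PRKAB1, the less abundantly counted beta subunit gene, was at 2.59, 3.50 and 2.41 CPM in UCP1 KI pigs and at 2.04, 2.12 and 1.301 CPM in WT pigs. The groups were fully apart, with UCP1 KI higher, a separation that 15.3% of all genes tested showed in one direction or the other. These levels rest on 80, 125 and 91 counts in UCP1 KI pigs and 74, 58 and 39 counts in WT pigs. The estimated log2 change of 0.64 (standard error 0.36, 95% interval -0.20 to 1.48) had an unadjusted p of 0.116 and an adjusted p of 0.667 from edgeR, and ranged from 0.44 to 0.76 when single pigs were left out. With library size only it moved by 0.27, close to the median of all genes.

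PRKAB2 encodes the beta subunit that predominates in muscle. It was at 69.9, 57.5 and 104 CPM in UCP1 KI pigs and at 79.2, 41.6 and 191 CPM in WT pigs. The lowest and the highest value were thus both found in WT pigs, and all 3 UCP1 KI pigs fell between them. The estimated log2 change of -0.43 (standard error 0.53, adjusted p = 0.842 from edgeR) turned to 0.36 without WT replicate 3. CHD1L, the gene with the overlapping span, was at 6.72 to 13.5 CPM in the 6 pigs and at 8.24 CPM in WT replicate 3.

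The gamma subunits differed from each other in how they were spread. PRKAG1 was at 33.0, 24.5 and 22.1 CPM in UCP1 KI pigs and at 26.9, 15.04 and 25.9 CPM in WT pigs, an estimated log2 change of 0.23 (standard error 0.30, adjusted p = 0.851 from edgeR). For PRKAG1 this was 0.006 without WT replicate 2, 0.046 without UCP1 KI replicate 1 and 0.38 with WT replicate 1 left out. PRKAG2 was at 33.5, 25.1 and 24.3 CPM in UCP1 KI pigs and at 42.2, 34.5 and 30.7 CPM in WT pigs. Here 2 of the UCP1 KI pigs were below all WT pigs and UCP1 KI replicate 1 lay inside their range, with an estimated log2 change of -0.37 (standard error 0.24, unadjusted p = 0.162, adjusted p = 0.701 from edgeR). PRKAG2 had the same direction in each fit with a pig left out, between -0.53 and -0.24, and with library size only, at -0.16.

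PRKAG3 was at 55.9, 30.7 and 55.3 CPM in UCP1 KI pigs and at 19.0, 70.1 and 44.9 CPM in WT pigs. The WT pigs alone spanned a 3.69-fold range that held all UCP1 KI pigs, and the means were 47.3 ± 14.4 CPM for UCP1 KI and 44.7 ± 25.6 CPM for WT (SD, n = 3 each). The estimated log2 change of 0.08 (standard error 0.47, adjusted p = 0.972 from edgeR) had no stable direction. It was -0.05 without UCP1 KI replicate 1, -0.04 without UCP1 KI replicate 3, -0.29 with WT replicate 1 left out, and 0.57 without WT replicate 2. It was 0.41 with library size only, a shift of 0.32 where the median of all genes moved by 0.25.

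**Figure D2:**
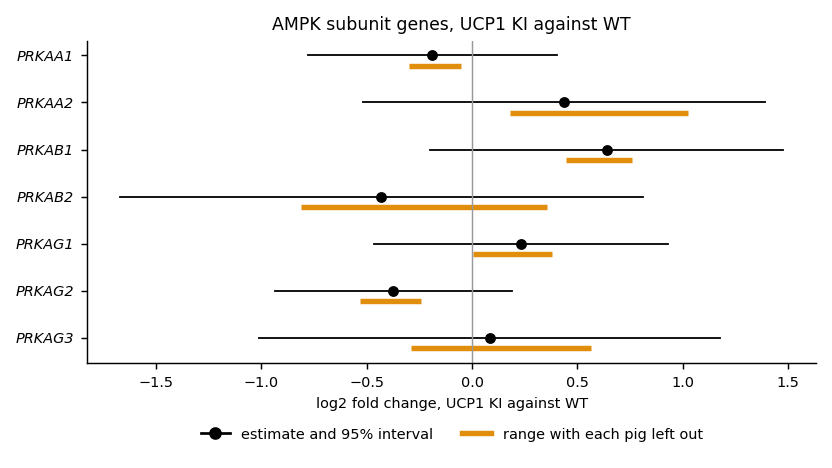
Log2 fold change of each AMPK subunit gene, UCP1 KI against WT, with the estimate and 95% interval of edgeR's fit (black) and the range of estimates with each pig left out in turn (orange). All intervals include 0. The leave-out ranges cross 0 for PRKAB2 and PRKAG3.

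The subunits fell into steady and variable genes. The pooled SD of log2(CPM + 1) within groups was 0.83 for PRKAB2 and 0.74 for PRKAG3, above that of 93.0% and 90.5% of the genes tested. PRKAA2 followed at 0.54, and PRKAG1 at 0.38 was close to the median of all genes, 0.33. PRKAA1, PRKAB1 and PRKAG2 were below that median, at 0.20, 0.23 and 0.24, although the pseudocount of 1 narrows the spread of a gene as low as PRKAB1. The genes that varied most within genotypes were thus the muscle-enriched subunits PRKAA2, PRKAB2 and PRKAG3.

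Ratios of genes of the same class within a pig are free of library scaling. The log2 count ratio of PRKAG2 to PRKAG1 was 0.02, 0.04 and 0.14 in the UCP1 KI pigs, compared with 0.65, 1.20 and 0.25 in WT pigs. The UCP1 KI pigs had nearly equal counts of both genes, and each WT pig had more of PRKAG2. The difference of the means, -0.63, had a two-sided exact permutation p of 0.1, the smallest that 3 pigs against 3 allow, and an adjusted p of 0.5 over the 5 ratios compared. It ranged from -0.86 to -0.38 when single pigs were left out.

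The other ratios overlapped between the genotypes. For PRKAA2 to PRKAA1 the log2 count ratio was 0.99, 0.50 and 1.08 in the UCP1 KI pigs, compared with -0.49, -0.42 and 1.24 in WT pigs, so that WT replicates 1 and 2 were the pigs with more PRKAA1 counts than PRKAA2 counts (exact permutation p = 0.4). The ratio of PRKAB2 to PRKAB1 was 4.75, 4.03 and 5.43 in the UCP1 KI pigs, compared with 5.27, 4.29 and 7.18 in WT pigs (exact permutation p = 0.5). These differences between the means were 0.75 for the alpha genes and -0.84 for the beta genes, and without WT replicate 3 they were 1.31 and -0.04. The alpha difference was 0.45 without WT replicate 1 and 0.48 without WT replicate 2, and the beta difference was -1.49 without WT replicate 2.

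The ratios with PRKAG3 had a larger SD among WT pigs (1.36 with PRKAG1 and 1.14 with PRKAG2) than among UCP1 KI pigs (0.50 and 0.45). PRKAG3 to PRKAG1 was 0.76, 0.32 and 1.33 in the UCP1 KI pigs, compared with -0.51, 2.22 and 0.79 in WT pigs (exact permutation p = 0.9). PRKAG3 to PRKAG2 was 0.74, 0.29 and 1.19 in the UCP1 KI pigs, compared with -1.15, 1.02 and 0.55 in WT pigs (exact permutation p = 0.6). In WT replicate 1 PRKAG3 was counted less than either of the other gamma genes, and in the other 5 pigs it was counted more than both. Since the genes differ in length, the ratios compare pigs and not the amounts of the isoforms.

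**Figure D3:**
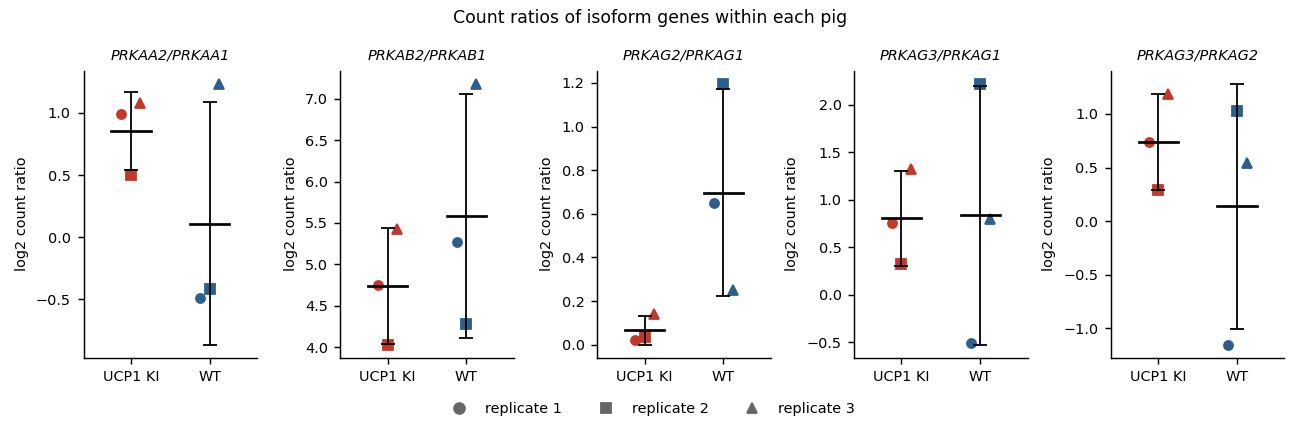
Log2 ratio of the counts of 2 genes of the same AMPK subunit class within each pig, for UCP1 KI (red) and WT (blue) pigs. Marker shapes give the replicate number, bars the group mean and whiskers the SD, and each panel has its own vertical scale. PRKAG2/PRKAG1 was the ratio without overlap, from 0.02 to 0.14 in UCP1 KI pigs and from 0.25 to 1.20 in WT pigs.

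PRKAG3 was read beside the fibre gene balance, since its product belongs to fast fibres. UCP1 KI replicate 2 and WT replicate 1, the 2 pigs with the lowest fast minus slow difference, had the lowest PRKAG3 of their genotype and of all 6 pigs, at 30.7 and 19.0 CPM. WT replicate 2, with the highest difference, had the highest PRKAG3, at 70.1 CPM. The order did not hold throughout, since WT replicate 3, with the second highest difference, had 44.9 CPM of PRKAG3, below UCP1 KI replicates 1 and 3. Over the 6 pigs, Pearson r between log2(CPM + 1) and the fast minus slow difference was 0.78 for PRKAG3 (Spearman rho 0.71), -0.69 for PRKAB1 and -0.46 for PRKAG1, and -0.39 to 0.26 for the other subunits. These are descriptions over pigs that share libraries with the fibre genes, and they do not set PRKAG3 apart from PRKAB1 in size. When the fast minus slow difference of each pig was added to the edgeR model as a covariate, a choice made after the values were seen, the log2 fold change of PRKAG3 was 0.74 (standard error 0.29) with an unadjusted p of 0.0414 and an adjusted p of 0.660. PRKAG3 thereby passed both limits, as did 3.31% of all genes tested in that direction in the same fit, and it was the only subunit that did. PRKAB1 had an estimate of 0.48 in this fit and was not called. With 1 pig left out of this fit the value lay between 0.44 and 0.93 and passed both limits in 2 of 6 cases, when UCP1 KI replicate 3 or WT replicate 2 was the pig left out. Each genotype held 1 pig with a low fibre balance, but the other UCP1 KI pigs (1.76 and 2.38) were below the other WT pigs (3.39 and 3.63), and 8 of the 9 fast-fibre genes had a lower estimate in UCP1 KI pigs, with a median log2 change of -0.53. The covariate fit tested the genotype term given the fibre balance, and the part of fibre composition in the levels of PRKAG3 was not tested.

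**Figure D4:**
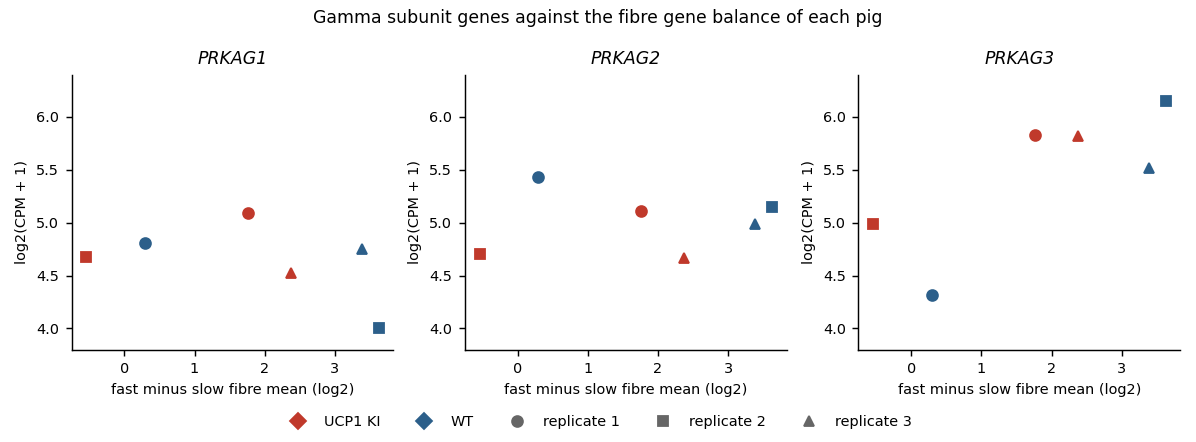
Log2(CPM + 1) of the gamma subunit genes against the mean log2 level of 9 fast-fibre genes minus that of 7 slow-fibre genes, 1 point per pig (red UCP1 KI, blue WT, shapes for the replicate number). PRKAG3 was lowest in the 2 pigs at the left, with differences of -0.55 and 0.29, and highest in the pig at the far right, with 3.63.

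Among 11296 other tested genes with a symbol, those whose log2(CPM + 1) followed PRKAG3 most closely over the 6 pigs were ARFGAP1, CAPZA2, MED9, COMMD5 and ZDHHC7, with Pearson r from 0.962 to 0.999. ARFGAP1, a regulator of Golgi transport, was at 54.3, 37.2 and 54.8 CPM in UCP1 KI pigs and at 27.4, 60.8 and 47.7 CPM in WT pigs. For PRKAA2 the close genes included XRCC6, RAPGEF1, NAP1L4 and TUBD1, with r from 0.988 to 0.999. XRCC6, a subunit of the Ku complex of DNA repair, was at 20.8, 20.2 and 23.1 CPM in UCP1 KI pigs and at 17.2, 16.4 and 23.4 CPM in WT pigs, in the same order of pigs as PRKAA2. All genes share the same 6 pigs and libraries, and these r values are given as a description only.

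Outside the subunits, 90 genes of the pathway could be tested, and 10 of them (11.11%) were called higher and 2 (2.22%) lower in UCP1 KI pigs, where 3.84% and 4.34% of all genes were. These genes were upstream kinases and regulators, adenine nucleotide enzymes, kinases related to AMPK, its substrates, its oxidative targets and the genes of glycogen metabolism. Their lists were chosen with earlier results of these data known, so the shares describe the lists and are not independent support. None of the 12 had an adjusted p under 0.05 from edgeR, the smallest being 0.583, whereas with DESeq2 FNIP1 had an adjusted p of 0.0173 and the others 0.107 to 0.485. The groups did not overlap for 13 of the 90 genes (14.4%, beside 15.3% of all genes tested). With library size only, 13 (14.4%, beside 6.93% of all genes) were called higher and 2 (2.22%, beside 1.46%) lower. Without UCP1 KI replicate 2, the pig with low fast-fibre genes, 3 (3.33%, beside 2.10% of all genes in that fit) were called higher and 2 (2.22%, beside 2.82%) lower. These numbers were 5 (5.56%, beside 2.40% of all genes) and 3 (3.33%, beside 2.79%) without WT replicate 2, and 6 (6.67%, beside 4.15%) and 4 (4.44%, beside 3.69%) without WT replicate 1. The fits without each of the other pigs gave 7 to 9 higher (7.78% to 10%, beside 3.39% to 5.41% of all genes) and 4 to 5 lower (4.44% to 5.56%, beside 3.35% to 5.71%). The fit with the fibre balance as a covariate gave 3 higher (LIPE, PFKFB3 and GBE1) and 2 lower (FNIP1 and PPP1R3D). In that fit 3.33% were called higher and 2.22% lower, beside 3.31% and 3.95% of all genes. The other 7 of the 12 genes lost the call in it, with an unadjusted p of 0.0528 to 0.207 from edgeR. MARK4 went from 0.997 to 0.54, HK2 from 1.85 to 1.39 and FOXO3 from 0.84 to 0.72. AMPD3 went from 1.90 to 1.80, UGP2 from 0.59 to 0.56, PNPLA2 from 0.57 to 0.51 and CRTC2 from 0.51 to 0.58. The fibroblast, smooth muscle, endothelial and leukocyte markers of the same pigs were given above, and their part in these calls was not tested.

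Of 17 upstream kinases, phosphatases and regulators, 1 was called, and the median log2 fold change was -0.21, which was -0.073 without WT replicate 1. FNIP1, a partner of folliculin and itself a target of AMPK, was lower in UCP1 KI pigs, at 8.11, 8.24 and 7.02 CPM against 66.8, 38.6 and 9.87 CPM in WT pigs. The groups did not overlap, but WT replicate 3 was close to the UCP1 KI pigs. The log2 fold change was -2.30 (standard error 0.60, unadjusted p = 0.00558, adjusted p = 0.583 from edgeR), and the call held in each fit with a pig left out, at -2.76 to -1.65. STK11, the main kinase upstream of AMPK, was at 66.0 to 76.8 CPM in UCP1 KI pigs and 41.8 to 64.6 CPM in WT pigs, without overlap, and its estimated log2 change of 0.44 was not called (edgeR, unadjusted p = 0.108).

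Among the substrates of lipid and carbohydrate metabolism, 3 of 11 were called, all higher. The median log2 fold change was 0.30, and 0.28 to 0.51 with a pig left out. LIPE, hormone-sensitive lipase, was at 23.3, 44.2 and 42.5 CPM in UCP1 KI pigs and at 23.0, 15.1 and 12.5 CPM in WT pigs, an estimated log2 change of 1.12 (standard error 0.35, adjusted p = 0.583 from edgeR). UCP1 KI replicate 1 and WT replicate 1 were almost level, and the call held with each pig left out. PNPLA2, adipose triglyceride lipase, was at 219.7 to 271 CPM against 141 to 197 CPM, an estimated log2 change of 0.57 that was just inside the p limit, at 0.0494 from edgeR. PNPLA2 lost the call, at 0.48 to 0.65, in each fit with a pig left out other than that without WT replicate 1, and also under both other filters on low counts. PFKFB3, which drives glycolysis through fructose bisphosphate, was at 199, 19.7 and 589 CPM in UCP1 KI pigs and at 16.5, 45.6 and 60.1 CPM in WT pigs, with overlap. Its estimated log2 change of 2.72 (standard error 1.04) rested on 2 UCP1 KI pigs and, among the fits with a pig left out, kept the call only when that pig was UCP1 KI replicate 1 or 2. It was 1.45 without UCP1 KI replicate 3, and it was 2.33, 2.81 and 3.12 without WT replicates 1, 2 and 3.

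Of 14 substrates of growth, autophagy and transcription, FOXO3 and CRTC2 were called, and the median log2 fold change of -0.09 turned positive when UCP1 KI replicate 2 or WT replicate 1 or 3 was left out. FOXO3, a transcription factor of atrophy and autophagy genes, was at 48.3, 83.9 and 63.2 CPM in UCP1 KI pigs and at 35.5, 28.2 and 45.8 CPM in WT pigs, an estimated log2 change of 0.84 (standard error 0.30, adjusted p = 0.583 from edgeR). Its groups did not overlap, and the call was lost without UCP1 KI replicate 2 (0.60) and also when WT replicate 1 (0.81) or 2 (0.68) was left out. CRTC2, a CREB coactivator, was at 24.3 to 26.7 CPM against 15.8 to 21.0 CPM, an estimated log2 change of 0.51 that was lost, at 0.41 to 0.56, in each fit with a pig left out other than that without WT replicate 2, and under the same filters. PPARGC1A, the coactivator of mitochondrial biogenesis, was at 9.31 to 37.0 CPM in UCP1 KI pigs and 18.4 to 40.2 CPM in WT pigs and was not called (unadjusted p = 0.543 from edgeR).

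Among 16 oxidative and uptake targets, HK2 alone was called, and the median log2 fold change of 0.11 turned negative when UCP1 KI replicate 2 or 3 or WT replicate 2 was left out. HK2, the hexokinase that traps glucose in muscle, was at 55.9, 59.9 and 12.3 CPM in UCP1 KI pigs and at 15.8, 6.50 and 13.2 CPM in WT pigs. UCP1 KI replicate 3 was inside the WT range and the other UCP1 KI pigs were well above it. The estimated log2 change of 1.85 (standard error 0.60, adjusted p = 0.583 from edgeR) lost the call without UCP1 KI replicate 2 (1.53) or WT replicate 2 (1.55).

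Genes of glycogen metabolism were called in both directions, with 2 of 14 called higher, 1 lower and a median log2 fold change of -0.13 that turned positive when UCP1 KI replicate 2 or WT replicate 3 was left out. GBE1, the glycogen branching enzyme, was at 12.6, 15.3 and 16.9 CPM in UCP1 KI pigs and at 7.08, 9.02 and 4.50 CPM in WT pigs. Its estimated log2 change of 1.12 (standard error 0.31, adjusted p = 0.583 from edgeR) kept the call when any single pig was left out, as did that of PPP1R3D. PPP1R3D, which targets a phosphatase to glycogen, was at 2.84, 2.21 and 1.85 CPM in UCP1 KI pigs and at 3.69, 8.51 and 5.87 CPM in WT pigs, an estimated log2 change of -1.38 (standard error 0.38). UGP2, which makes the glucose donor of glycogen synthesis, was at 152 to 185 CPM against 102 to 122 CPM, an estimated log2 change of 0.59 that lost the call without UCP1 KI replicates 1 (0.62) or 2 (0.49) or WT replicates 1 (0.56) or 3 (0.54). GYS1, the glycogen synthase that AMPK phosphorylates, had an estimated log2 change of 0.03, and PYGM, which releases glucose from glycogen, one of -0.10, both with overlapping groups.

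The adenine nucleotide enzymes and the kinases related to AMPK each had 1 gene called, of 9 and 10 tested, with median log2 fold changes of 0.07 and 0.09. Both medians turned negative when UCP1 KI replicate 3 or WT replicate 2 was left out, and the former also without WT replicate 1. AMPD3, an AMP deaminase, was at 12.6, 102 and 154 CPM in UCP1 KI pigs and at 33.3, 16.7 and 21.8 CPM in WT pigs, with the lowest value of the 6 in UCP1 KI replicate 1. Its estimated log2 change of 1.90 passed the limits without that pig (2.42) and in none of the other fits with a pig left out, where it was 1.24 to 2.19. MARK4 was at 7.24, 16.9 and 6.35 CPM against 5.76, 5.11 and 4.40 CPM, an estimated log2 change of 0.997 that fell to 0.41 without UCP1 KI replicate 2 and also lost the call without WT replicate 1 (1.09), 2 (0.998) or 3 (0.90). AMPD1, the muscle AMP deaminase that removes the nucleotide sensed by the gamma subunit, was at 338 to 689 CPM in UCP1 KI pigs and 232 to 549.8 CPM in WT pigs, with overlap.

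**Figure D5:**
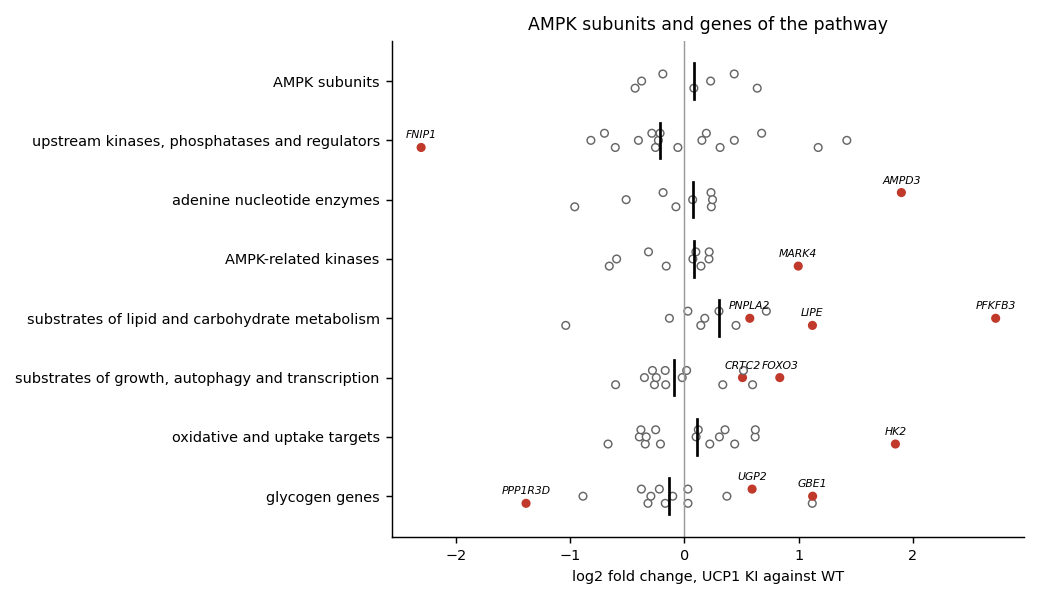
Log2 fold change, UCP1 KI against WT, of the AMPK subunit genes and of the genes of each pathway list, 1 circle per gene, with filled red circles for genes past both limits and a black bar at the median of the list. No AMPK subunit is filled, the called genes lie mostly to the right of 0, and the medians lie between -0.21 and 0.30.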

How the data were processed

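The deposited table held raw counts of reads, not normalized, for 30476 Ensembl genes. Each pig had 1 column, and the number of columns not used was 0. FastQC 0.11.2, bedtools 2.26.0 and DESeq2 1.12.4 also stand in the submitters' processing notes. The authors trimmed paired-end reads with Trimmomatic 0.36, mapped them with HISAT2 2.0 and used StringTie 1.3.3b. The annotation release and the counting program are not given in the sources used here, nor is the treatment of reads that match several genes. Columns were matched to pigs by genotype and replicate number.

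Counts were tested in R 4.3.3 with edgeR 4.0.16 (filterByExpr, TMM factors, quasi-likelihood F test, two-sided, genotype as the only term), with Benjamini-Hochberg adjustment over 13402 genes and standard errors from the F statistic. Alternatives were DESeq2 1.42.0, other scalings and filters, a replicate block, each pig left out, and, added after the data were seen, the fibre balance as a covariate. The limits (p below 0.05 before adjustment, log2 fold change beyond 0.5 either way) follow the study, which does not say whether its p was adjusted. The p values set the difference between genotypes against the variation between pigs. They take the 6 pigs as independent, and nothing says how the pigs relate. Replicates differed by far more than counting noise, and none was merged. CPM values use TMM-scaled totals and are given with the SD over 3 pigs. Ratios of counts used a pseudocount of 0.5 and an exact permutation test over 20 assignments. The procedure was tested on simulated data.

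The subunits and the pathway lists were chosen with earlier results of these data known. Genes outside the subunits were named by a rule: genes past both limits in each pathway list, at most 4 by p (where none passed, the 1 with the smallest p, which was not needed), and the 5 genes most like PRKAG3 and PRKAA2, of which 1 is not reported here. STK11, PPARGC1A, GYS1, PYGM and AMPD1 were added for their roles after their values were seen. Transcript lengths and sequences were not used here, so levels of different genes were not ranked.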

Additional observations from a re-analysis of the deposited data

How the results depend on the processing

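Of the 7 AMPK subunits, 0 were called under each alternative except 1 (PRKAA2) without WT replicate 3 and 1 (PRKAG3) with the fibre balance as a covariate, so the range with a pig left out was 0 to 1. The number of genes called was 1097, with 515 higher and 582 lower, and it was 678 to 1541 with a pig left out, lowest without UCP1 KI replicate 2 (678) and WT replicate 2 (718). At an adjusted p under 0.05 it was 0 with edgeR as reported, where 1100 genes had an unadjusted p under 0.05, 1 with library size only and 1 with all genes of any count kept, while 127 genes had such an adjusted p with DESeq2. Library size only gave 929 higher and 195 lower genes. PRKAA1 was 0.064 with library size only, moved by 0.25 like the median of all genes. The sign changed for PRKAB2 without WT replicate 3 (0.36) and for PRKAG3 without UCP1 KI replicate 1 (-0.05), UCP1 KI replicate 3 (-0.04) or WT replicate 1 (-0.29). With a pig left out PRKAB2 ranged from -0.81 to 0.36 and PRKAG3 from -0.29 to 0.57. The difference in PRKAG3/PRKAG1 was -0.03 and lay between -0.70 and 0.66 with a pig left out, positive at 0.21 when UCP1 KI replicate 2 was left out and at 0.66 when WT replicate 2 was. That in PRKAG3/PRKAG2 was 0.60 and lay between -0.047 and 1.04, negative without WT replicate 1.

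Library size only moved the median of all genes by 0.25 and those of all 7 pathway lists by 0.23 to 0.29, to 0.030 for upstream regulators, 0.34 for AMPK-related kinases, 0.59 for lipid and carbohydrate substrates, 0.17 for growth, autophagy and transcription substrates, 0.35 for oxidative targets, 0.34 for adenine nucleotide enzymes and 0.10 for glycogen genes, so the lists moved with the scaling. With a pig left out, the median ranged from -0.095 to 0.21 for AMPK-related kinases and from -0.14 to 0.11 for the growth, autophagy and transcription substrates. It also changed sign for glycogen genes (-0.34 to 0.31), adenine nucleotide enzymes (-0.13 to 0.29) and oxidative targets (-0.066 to 0.32), and kept it for upstream regulators (-0.35 to -0.073) and lipid and carbohydrate substrates (0.28 to 0.51). The cause of the shifts with a pig left out was not tested.

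With all genes of any count kept, 8 pathway genes (8.79%, beside 3.27% of all genes) were called higher and 2 (2.20%, beside 3.51%) lower. With at least 10 counts required in every pig, 8 (8.99%, beside 3.79%) were called higher and 2 (2.25%, beside 4.68%) lower. PNPLA2 (0.59 and 0.56) and CRTC2 (0.53 and 0.50) lost the call in both fits, at an unadjusted p of 0.0504 to 0.0583 from edgeR. With the replicate number as a block (replicate block), 1114 genes and 0 subunits were called. Of the pathway genes, 6 (6.67%, beside 4.06% of all genes) were then called higher and 3 (3.33%, beside 4.25%) lower. The call was lost by AMPD3 (1.54), MARK4 (0.86), PFKFB3 (2.17), PNPLA2 (0.58) and CRTC2 (0.52). In that fit PRKAA2 was 0.56 (unadjusted p = 0.0948 from edgeR), PRKAB2 -0.20 and PRKAG3 0.23. Pigs that share a number had correlations of 0.00, 0.09 and 0.28 (replicates 1, 2 and 3) between their deviations from the group means. Pigs of different genotype and number had -0.20 to 0.13. The numbers were taken as names only. Shares and an order of subunit levels per length were planned and not run, since transcript lengths were not used here. PRKAB1, with 39 to 125 counts per pig, is the subunit most limited by depth.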
